A study of Mus musculus with 12 samples.

Results

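Aminoacyl-tRNA synthetases are the enzymes that attach each amino acid to its tRNA. Their genes were taken as the protein-coding rows of the table whose symbol follows the synthetase pattern, an amino acid letter followed by "ars" with an optional 1 or 2, together with Eprs, Farsa, Farsb and Tarsl2. The rule returned 38 genes of 55487 in the table, of which 21936 were protein-coding. It used names only and no measured value, but the members were chosen with earlier results of these data known. By symbol, 20 genes were cytosolic and 18, whose symbols end in 2, were mitochondrial. Tarsl2 falls in the mitochondrial set by this rule, but it is homologous to the cytosolic threonyl enzyme, so counts for that set are also given without it. All 38 genes passed the filter on low values, which asked for at least 1 CPM (reads per 1000000 reads of the library) in at least 3 of 12 libraries and kept 14202 genes.

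RNA was sequenced from primary vascular smooth muscle cells (VSMCs) of mice labelled wild-type (WT) or Tigar knockout (KO), either left untreated or given the growth factor PDGF-BB. Each of the 4 groups held 3 libraries. The mice were 4 to 6 weeks old, the cells were at passages 4 to 6 in medium with serum, and treatment was 40 µg/L PDGF-BB for 6 h. The labels name no strain, no Cre or targeting construct and no animal or culture behind a library, so the p-values measure the spread between these libraries, which may be technical.

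Every tRNA has to be charged before a ribosome can use its amino acid, and cells keep separate enzymes for the cytosol and for the mitochondrial ribosome. In mammals, 8 of the cytosolic synthetases sit with the scaffolds Aimp1, Aimp2 and Eef1e1 in the multi-synthetase complex. Gars and Kars each encode both the cytosolic and the mitochondrial enzyme, while mitochondrial glutaminyl-tRNA is made by amidation of glutamyl-tRNA, so Gars, Kars and Qars have no mitochondrial partner gene here. Many cytosolic synthetase genes are known targets of ATF4, the transcription factor of the integrated stress and amino acid responses, which binds CARE sequences (C/EBP-ATF response elements). PDGF-BB is a mitogen for VSMCs, and Tigar encodes a fructose-2,6-bisphosphatase.

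Library totals ranged from 14953807 to 21698488 reads, and the fewest reads behind any member in any library were 59, for Pars2. Tigar, the gene named in the genotype label, was not lower in the libraries labelled KO: it was at 7.5 ± 0.955 CPM in WT untreated, 11.9 ± 0.659 in WT with PDGF-BB, 11.2 ± 1.12 in KO untreated and 15.2 ± 0.888 in KO with PDGF-BB (SD, n = 3 each). RNA from a deleted gene can still be counted outside the deleted part, and the labels do not say which part was deleted, so the groups are called "labelled KO" or KO throughout. Of the smooth muscle markers, Acta2 was at 1133 to 2863 CPM and Myh11 at 28 to 90 CPM, whereas Tagln was at 2.98 to 7.12 CPM in all libraries. Of 7 measured smooth muscle markers, 4 were higher in the labelled KO untreated and 6 with PDGF-BB, with 0 lower and median log2 differences of 0.38 and 0.85; Cnn1 with PDGF-BB was at 77.6 to 110 CPM in WT and 209 to 220 CPM in KO. The 6 endothelial markers summed to 60.6 to 82.6 CPM in the WT libraries and to 482 to 570 CPM in those labelled KO, with Pecam1 at 29 to 39.5 and 237 to 264 CPM. The macrophage markers ran the other way, at 91 to 127 CPM in WT and 27.4 to 32.8 CPM in KO. The Schwann markers summed to 34.8 to 55.3 CPM in WT and 12 to 16.9 CPM in KO, with Sox10 at 0 in all libraries, and the epithelial markers to 2.39 to 4.01 and 14.4 to 19.2 CPM. With PDGF-BB the fibroblast markers summed to 208 to 223 CPM in WT and 372 to 388 CPM in KO. The striated muscle markers then summed to 7.42 to 11.8 and 20.5 to 23.6 CPM, and the adipocyte markers to 6.87 to 7.65 and 4.5 to 5.5 CPM. Untreated, the sums of these last lists overlapped between the labels. The part of these markers in the genotype differences below was not tested, and in bulk RNA fewer cells of a type and less RNA per cell cannot be told apart. WT with PDGF-BB replicate 1 stood apart from its group: its root mean square distance to the other replicates was 0.416 on the log2 scale, against 0.143 to 0.293 for the other 11 libraries. Its expression was also skewed by exon length, with a rank correlation across genes of -0.44 between deviation and length, against -0.05 to 0.14 elsewhere.

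Promoters are printed for the cytosolic genes that carry the CARE core, because several of them led the WT response below. Qars, the cytosolic gene that was called in neither response, is printed as well. Sequences are from RefSeq on GRCm38.p6 and run from 250 bases before to 50 after the annotated start, 5′ to 3′ on the gene's strand. Capitals mark 3 motifs found on either strand: the CARE core TGATGNAA, the E-box CACGTG and the NRF1 half-site pair, which is GCGC, 2 bases of any kind and GCGC again. Aars is at chr8:111033592-111033891 (+), Gars at chr6:55037751-55038050 (+), Iars at chr13:49681880-49682179 (+), Tars at chr15:11399609-11399908 (-), Yars at chr4:129189653-129189952 (+) and Qars at chr9:108507755-108508054 (+).
Aars: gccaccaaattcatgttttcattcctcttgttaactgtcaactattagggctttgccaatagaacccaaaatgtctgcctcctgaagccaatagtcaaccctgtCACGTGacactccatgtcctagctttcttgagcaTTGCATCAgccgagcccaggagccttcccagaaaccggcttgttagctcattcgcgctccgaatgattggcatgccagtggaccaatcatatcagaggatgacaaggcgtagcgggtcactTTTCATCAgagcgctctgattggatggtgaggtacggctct
Gars: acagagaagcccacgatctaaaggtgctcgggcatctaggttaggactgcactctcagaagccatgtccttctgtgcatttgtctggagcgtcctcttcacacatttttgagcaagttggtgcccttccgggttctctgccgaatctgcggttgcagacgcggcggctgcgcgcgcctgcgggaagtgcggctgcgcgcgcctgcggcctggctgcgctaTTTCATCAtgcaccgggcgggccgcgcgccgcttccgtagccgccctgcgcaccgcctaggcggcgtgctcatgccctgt
Iars: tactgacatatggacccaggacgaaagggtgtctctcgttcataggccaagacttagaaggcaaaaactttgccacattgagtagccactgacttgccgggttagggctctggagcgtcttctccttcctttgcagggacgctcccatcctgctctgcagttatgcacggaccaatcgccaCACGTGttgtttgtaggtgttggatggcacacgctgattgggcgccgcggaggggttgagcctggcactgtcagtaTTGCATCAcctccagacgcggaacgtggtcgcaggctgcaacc
Tars: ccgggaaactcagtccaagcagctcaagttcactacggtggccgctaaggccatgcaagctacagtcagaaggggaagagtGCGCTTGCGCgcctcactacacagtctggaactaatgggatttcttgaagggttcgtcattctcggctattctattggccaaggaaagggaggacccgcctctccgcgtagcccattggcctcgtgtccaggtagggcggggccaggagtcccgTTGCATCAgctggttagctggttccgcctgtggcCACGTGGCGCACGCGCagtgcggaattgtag
Yars: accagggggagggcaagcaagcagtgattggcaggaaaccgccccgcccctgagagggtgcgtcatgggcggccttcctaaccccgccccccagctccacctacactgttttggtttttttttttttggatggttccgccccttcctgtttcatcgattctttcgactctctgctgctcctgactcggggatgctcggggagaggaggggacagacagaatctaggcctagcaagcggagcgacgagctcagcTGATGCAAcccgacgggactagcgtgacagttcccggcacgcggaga
Qars: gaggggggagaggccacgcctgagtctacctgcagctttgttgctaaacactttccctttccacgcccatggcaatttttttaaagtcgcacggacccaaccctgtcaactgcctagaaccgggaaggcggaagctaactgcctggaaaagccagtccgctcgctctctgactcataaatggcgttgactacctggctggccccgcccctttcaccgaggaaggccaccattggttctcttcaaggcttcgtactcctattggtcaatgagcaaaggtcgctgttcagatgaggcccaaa
In Tars the E-box runs into the second NRF1 pair, so the capitals form a single block there. Of the 38 genes, 28 matched the promoter table. The CARE core was found in 5 of the 13 matched cytosolic genes and in 0 of the 15 matched mitochondrial genes (16 windows), against 3.97% of all 32817 promoter windows of this length. The E-box was found in 4 cytosolic genes (Aars, Farsb, Iars and Tars) and 1 mitochondrial gene (Ears2), against 7.15% of all windows. The NRF1 pair was found in 3 cytosolic genes (Farsb, Kars and Tars) and 2 mitochondrial genes (Iars2 and Mars2), against 6.22% of all windows. These are matches of letters, with no binding measured, and Cars, Hars, Lars, Nars, Rars, Vars and Wars were among the genes that did not match. The matched cytosolic genes without the CARE core also rose in WT, all but Qars. Farsa (0.93), Farsb (0.90) and Eprs (0.89) rose more on the log2 scale than the carrier Iars (0.87). Dars, Kars, Mars1 and Sars rose less than Iars. In the labelled KO the carriers Aars (0.24) and Iars (0.25) had the smallest called cytosolic rises. The carriers Tars, Gars and Yars were there at 0.34, 0.37 and 0.38.

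In untreated WT cells the cytosolic genes were the more abundant set. Per kilobase of the exon length given with the data, the median cytosolic level was 19.7 CPM per kb and the median mitochondrial level 4.91 CPM per kb. That length is not always the union of annotated exons. It is 4906 bases for Eprs, whose union is 18102, and 11294 for Mars2, the same as its union. Ranks between genes therefore depend on it, and in CPM alone Mars2 at 10.1 lay above Pars2 at 4.51. Gars, the glycyl enzyme of both compartments, was highest at 56.4 ± 4.0 CPM per kb, followed by Nars (asparaginyl) at 46.4 ± 1.9 and Kars (lysyl, both compartments) at 38.1 ± 0.795 (SD, n = 3). Cars (cysteinyl) was the lowest cytosolic gene at 13.3 ± 0.751 CPM per kb, close to Farsb at 14.1 ± 0.741 and Farsa at 14.2 ± 0.759, which encode the beta and alpha subunits of one enzyme. Iars2 (isoleucyl) was the highest mitochondrial gene at 17.4 ± 0.318 CPM per kb, and Cars2 (cysteinyl) followed at 16.3 ± 0.504. Both lay within the cytosolic range, and the lowest were Nars2 at 1.32 ± 0.215 and Mars2 at 0.897 ± 0.0519. For Iars2, 24.2% of the exon bases overlap exons of genes on the other strand, mainly Rab3gap2; the kit is stranded but the counting setting is not given in the sources used here, so its reads may include that gene's. Across the other groups the medians were 38.9 and 4.02 CPM per kb in WT with PDGF-BB, 23.6 and 3.82 in KO untreated, and 29 and 3.29 in KO with PDGF-BB, cytosolic first.

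Summed over the 20 cytosolic genes, the level was 1457, 1556 and 1485 CPM in untreated WT libraries and 3149, 2673 and 2589 CPM with PDGF-BB. In the labelled KO it was 1616, 1814 and 1818 CPM untreated and 2188, 2158 and 2214 CPM with PDGF-BB. All 3 untreated KO libraries were above the untreated WT libraries, and all 3 treated KO libraries were below the treated WT libraries. The 18 mitochondrial genes summed to 354.8, 354.1 and 365.5 CPM in untreated WT and 365.1, 342.3 and 350.4 CPM with PDGF-BB, which overlap. In the labelled KO the mitochondrial sum was 320.5, 307.1 and 304.9 CPM untreated and 300.8, 299.6 and 299.5 CPM with PDGF-BB, below every WT library in both conditions. The size of this gap depends on how the libraries are scaled. The median log2 genotype difference of the set was -0.14 untreated and -0.24 with PDGF-BB on CPM. With TMM scaling it was -0.01 and -0.14. Iars2 alone supplied 95.7, 93.2 and 96.6 CPM of the untreated WT sums.

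**Figure D1:**
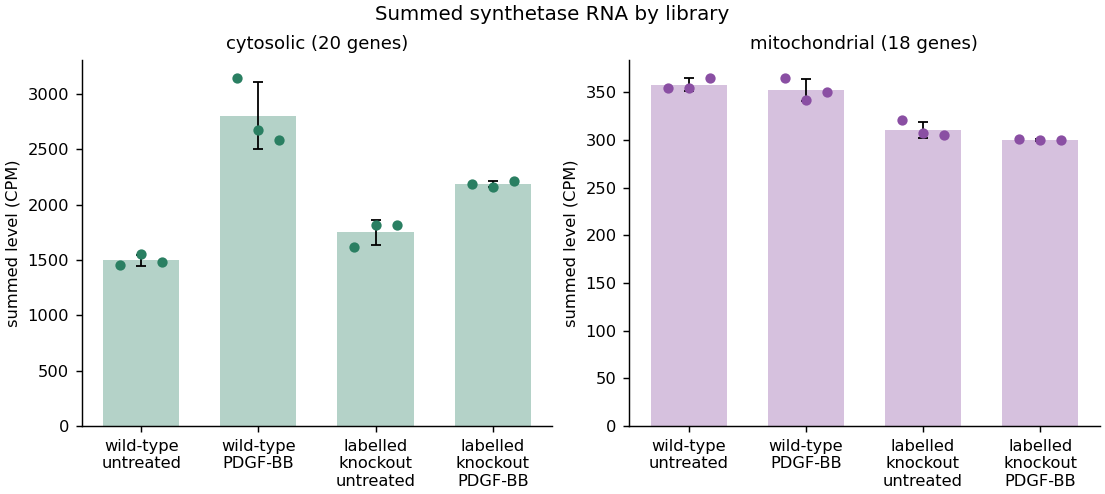
Summed level in CPM of the cytosolic (left) and mitochondrial (right) synthetase genes; points are the 3 libraries of a group, bars the mean and error bars the SD. The cytosolic sum was 1457 to 1556 CPM in untreated WT and 2589 to 3149 CPM with PDGF-BB, while the mitochondrial sum stayed between 299.5 and 365.5 CPM in all 12 libraries.

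The first comparison asked how WT cells responded to PDGF-BB. Of the 20 cytosolic genes, 19 rose and 0 fell, with a median log2 change of 0.90; over all genes 25% were called higher and 34.4% lower, with a median of -0.08. In each of the 19 genes every treated library lay above every untreated one, and 5 genes rose at least 2-fold on the scale of CPM + 1. The shares of all genes with either trait were not counted, so neither is read as a mark of this set. Of the 18 mitochondrial genes, 7 rose, 7 fell and 4 were not called, with a median of -0.06; without Tarsl2 the counts were 7 and 6. The mitochondrial median lay near 0 and its sign depended on the scaling, since it was 0.01 with TMM or quantile scaling. By edgeR and by DESeq2 on the recovered reads, 19 cytosolic genes were also called higher and 0 lower, and at an unadjusted p under 0.05 limma-trend called 19 and 0.

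Aars, the alanyl enzyme, had the largest rise. It was at 108, 120 and 105 CPM in untreated WT and at 276, 269 and 260 CPM with PDGF-BB, so the treated libraries lay far above the untreated ones. The log2 change was 1.27 (SE 0.07), or 2.41-fold, with a limma-trend adjusted p of 1.14e-08. Its promoter holds the CARE core at 2 places, and 14.3% of its exon bases overlap Exosc6 on the same strand. Yars, the tyrosyl enzyme, went from 46, 50.7 and 47.7 CPM to 131, 109 and 102 CPM, a log2 rise of 1.22 (SE 0.091, adjusted p = 1.52e-07). Cars went from 41.3, 45.7 and 41.6 CPM to 115, 88.6 and 92.1 CPM, a log2 rise of 1.17 (SE 0.1, adjusted p = 7.22e-07). None of these 3 genes had overlapping groups. Tars, the threonyl enzyme, was at 65.3, 73.8 and 70.1 CPM untreated and 180, 148 and 136 CPM treated, up 1.13 (SE 0.099, adjusted p = 7.05e-07). Nars was at 124, 133 and 125 CPM untreated and 345, 257 and 249 CPM treated, up 1.13 (SE 0.11, adjusted p = 1.2e-06). For Cars, Tars and Nars, as for most of the cytosolic genes, the highest treated value came from replicate 1, the library that stood apart.

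The other 14 cytosolic genes that rose did so by 0.57 to 0.98 on the log2 scale. They were Rars (arginyl) at 0.98, Gars at 0.96, Hars (histidyl) at 0.94, Farsa at 0.93, Farsb at 0.90, Eprs (the fused glutamyl and prolyl enzyme) at 0.89, Iars (isoleucyl) at 0.87, Vars (valyl) at 0.81, Mars1 (methionyl) at 0.77, Dars (aspartyl) at 0.73, Wars (tryptophanyl) at 0.69, Lars (leucyl) at 0.68, Sars (seryl) at 0.65 and Kars at 0.57. Qars, the glutaminyl enzyme, was the exception at 81.4, 92.8 and 87.6 CPM untreated and 86.1, 85.1 and 76 CPM treated. Its groups overlapped and its log2 change was -0.08 (SE 0.07, adjusted p = 0.331). The 8 members of the multi-synthetase complex, which include Qars, had a median of 0.75 with 7 called higher, and the 12 genes outside it had a median of 0.95 with 12 called higher. Taken library by library against the untreated mean, the median cytosolic change was 1.10 in replicate 1, 0.80 in replicate 2 and 0.78 in replicate 3. Without replicate 1 the median was 0.78, and 19 genes were called higher.

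The mitochondrial genes split. Ears2, the glutamyl enzyme, rose most, from 7.69, 8.45 and 8.58 CPM to 17.1, 17.7 and 16.7 CPM, a log2 change of 0.98 (SE 0.1, adjusted p = 3.6e-06). Yars2 (tyrosyl, linked in humans to a syndrome of muscle weakness, lactic acidosis and anaemia) went from 8.63, 9.01 and 9.35 CPM to 19.3, 17.4 and 15.8 CPM, up 0.89 (SE 0.097, adjusted p = 5.03e-06). Mars2 (methionyl) went from 9.64, 9.98 and 10.8 CPM to 15.4, 15.7 and 16.6 CPM, up 0.60 (SE 0.091, adjusted p = 8.82e-05). The treated libraries of these 3 genes all lay above the untreated ones, and their spread was small. Rars2 (arginyl) went from 16.5, 15.7 and 16.8 CPM to 28.2, 23.5 and 22.7 CPM, up 0.57 (SE 0.091, adjusted p = 0.000143). The remaining rises were Nars2 at 0.52, Aars2 at 0.39 and Tars2 at 0.26. That of Tars2 was not called without WT untreated replicate 1 (adjusted p = 0.0699), WT untreated replicate 2 (0.107) or WT PDGF-BB replicate 1 (0.0753). It was also not called with the compared groups alone (0.0812) or with gene-by-gene array weights (0.071).

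Among the mitochondrial genes that fell, Cars2 fell most. It was at 32.1, 30.4 and 30.4 CPM untreated and 16.8, 17.1 and 19.1 CPM with PDGF-BB, a log2 change of -0.78 (SE 0.094, adjusted p = 1.3e-05). Its cytosolic counterpart Cars was among the genes that rose most. Tarsl2 went from 19.6, 17.9 and 22.6 CPM to 10.7, 13.9 and 11.7 CPM, with a log2 change of -0.68 (SE 0.12, adjusted p = 0.000325). Wars2 (tryptophanyl) went from 12, 12.4 and 12.7 CPM to 7.53, 9.57 and 8.71 CPM, with a log2 change of -0.49 (SE 0.12, adjusted p = 0.00374). In these 3 genes every treated library lay below every untreated one. Vars2 was at -0.37, Lars2 at -0.35 and Hars2 at -0.23; the call of Lars2 was lost under 18 of 24 alternatives and that of Hars2 under 11. The 4 genes not called were Pars2 (prolyl) at 0.21, Iars2 at -0.05, Sars2 (seryl) at -0.08 and Fars2 (phenylalanyl) at -0.34.

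In cells labelled KO the same treatment moved the synthetases less. Of the cytosolic genes 15 rose and 0 fell, with a median log2 change of 0.34, where 17.6% of all genes were called higher and 24.8% lower and the median of all genes was -0.07. None rose 2-fold. By edgeR and DESeq2 the counts were also 15 and 0, and at an unadjusted p under 0.05 they were 15 and 0. Of the mitochondrial genes 4 rose and 4 fell, with a median of -0.13; without Tarsl2 the counts were 4 and 3.

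Hars had the largest rise in the labelled KO, from 34.7, 40.9 and 39.9 CPM to 75.1, 72.5 and 71.1 CPM. The log2 change was 0.91 (SE 0.11, adjusted p = 3.59e-05), and in WT it was 0.94. Of its exon bases, 7.97% overlap Hars2 on the other strand. Rars, a member of the complex, went from 57.6, 60.1 and 59.5 CPM to 95.1, 97.4 and 102 CPM, up 0.72 (SE 0.089, adjusted p = 3.09e-05). Farsb went from 28.7, 28.6 and 30 CPM to 38.8, 43.2 and 47 CPM, up 0.54 (SE 0.11, adjusted p = 0.00161). Kars went from 57.4, 63.5 and 69.6 CPM to 93.1, 89.4 and 93.2 CPM, up 0.53 (SE 0.077, adjusted p = 0.000118). In these 4 genes the treated libraries lay above all untreated ones. The genes that led in WT were lower in the order here: Nars rose by 0.43, Yars by 0.38, Tars by 0.34 and Aars by 0.24, with Aars going from 164, 185 and 189 CPM to 214, 210 and 211 CPM (SE 0.07, adjusted p = 0.0134). Without KO untreated replicate 1, which was the lowest of its group for all of these, Aars was at 0.18 (adjusted p = 0.059) and Tars at 0.25 (adjusted p = 0.075), so both calls rest on that library.

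The other rises in the labelled KO were Farsa at 0.53, Gars at 0.37, Wars at 0.35, Dars at 0.35, Vars at 0.34, Eprs at 0.32 and Iars at 0.25. The call of Gars was lost without KO untreated replicate 1 (adjusted p = 0.115), KO PDGF-BB replicate 1 (0.058) or KO PDGF-BB replicate 3 (0.0762). It was also lost with no filter (0.0574). That of Iars was lost without KO untreated replicate 1 (0.0956), KO PDGF-BB replicate 2 (0.0514) or KO PDGF-BB replicate 3 (0.0749), and with quantile scaling (0.0651). Not called were Cars at 0.22 (adjusted p = 0.109), Mars1 at 0.06, Lars at 0.06, Sars at 0.03 and Qars at 0.03. Of the 19 cytosolic genes called higher in WT, 15 were also called higher in the labelled KO, which is all 15 of the KO calls, and Cars, Lars, Mars1 and Sars were not called there.

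The mitochondrial genes that rose in the labelled KO were Yars2, Ears2, Mars2 and Aars2, all of which also rose in WT. Yars2 went from 8.24, 8.96 and 9.4 CPM to 13.7, 13.7 and 15.1 CPM, up 0.62 (SE 0.097, adjusted p = 0.000207). Ears2 went from 7.72, 7.16 and 9.34 CPM to 13.3, 12.9 and 12 CPM, up 0.61 (SE 0.1, adjusted p = 0.000403). Mars2 went from 11.1, 10.4 and 10.2 CPM to 16.4, 14.4 and 13.9 CPM, up 0.46 (SE 0.091, adjusted p = 0.00134). Treated and untreated libraries did not overlap in any of the 3. Aars2 (alanyl, linked in humans to a cardiomyopathy of infants) went from 8.83, 8.36 and 9.34 CPM to 10.7, 11 and 10.1 CPM, up 0.24 (SE 0.089, adjusted p = 0.0457), a call lost under 14 of 24 alternatives.

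The mitochondrial genes that fell in the labelled KO included Cars2, Tarsl2 and Vars2, and these also fell in WT. Cars2 went from 32.8, 28 and 30.2 CPM to 20.9, 17.9 and 16.9 CPM, with a log2 change of -0.68 (SE 0.094, adjusted p = 8.15e-05). Tarsl2 went from 11.5, 10.6 and 10 CPM to 7.93, 6.96 and 8.81 CPM, with a log2 change of -0.40 (SE 0.12, adjusted p = 0.0186). Both genes were lower in every treated library than in every untreated one. The call of Tarsl2 was lost without KO untreated replicate 1 (adjusted p = 0.0688) or KO PDGF-BB replicate 2 (0.0843), and with quantile scaling (0.073). Vars2 (valyl) went from 20.4, 18.3 and 20.7 CPM to 17.1, 14.6 and 14.6 CPM, with a log2 change of -0.34 (SE 0.095, adjusted p = 0.011).

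**Figure D2:**
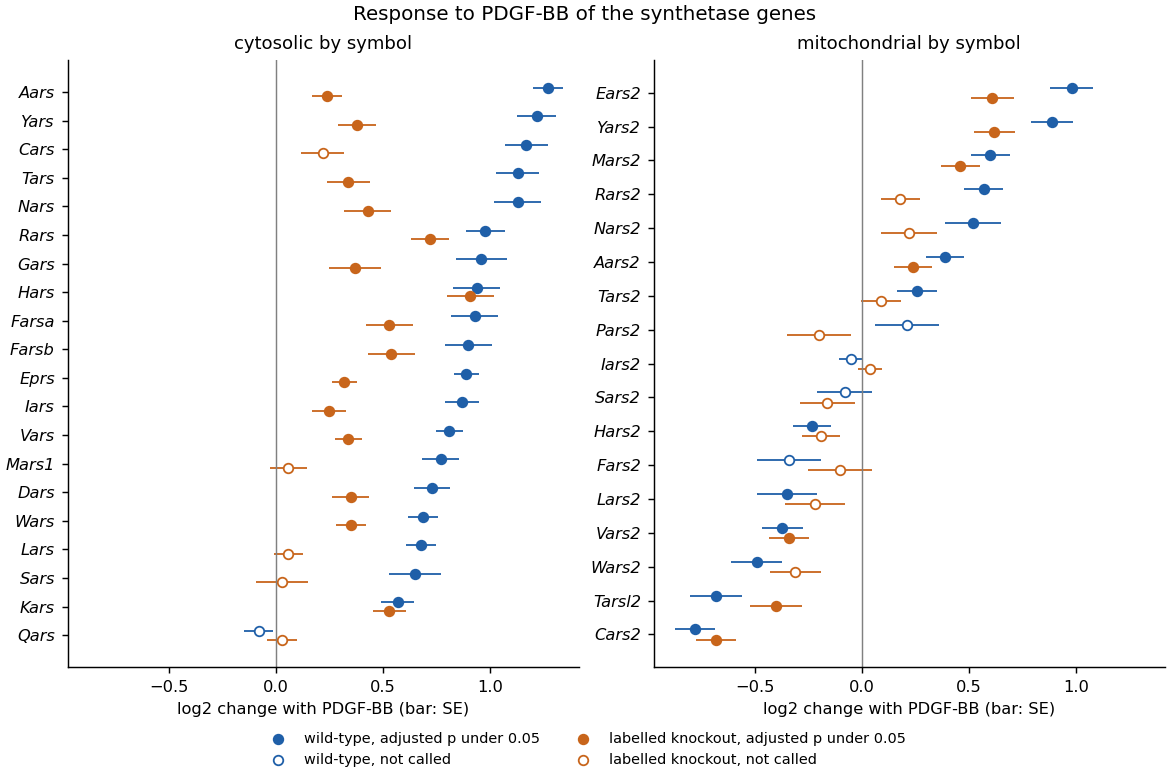
Log2 change with PDGF-BB of the cytosolic (left) and the named mitochondrial (right) synthetase genes in WT (blue) and labelled KO (orange); bars are the SE, and filled points passed an adjusted p of 0.05. In WT 19 cytosolic genes lay between 0.57 and 1.27 with Qars at -0.08. In the labelled KO only Hars, at 0.91, and Rars, at 0.72, of the cytosolic genes lay above 0.54.

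Set side by side for the same amino acid, the cytosolic gene had the more positive response in most pairs. There were 18 such pairs, which are not all separate comparisons. Eprs is paired with both Ears2 and Pars2, and Fars2 with both Farsa and Farsb. Tarsl2 was left out of the pairs. In WT the cytosolic change was the more positive in 17, the exception being Eprs at 0.89 beside Ears2 at 0.98. In the labelled KO it was the more positive in 15, the exceptions being Eprs with Ears2 (0.32 and 0.61), Mars1 with Mars2 (0.06 and 0.46) and Yars with Yars2 (0.38 and 0.62); Aars and Aars2 were both at 0.24 to 2 decimals. In WT 6 pairs were called in opposite directions, among them those for cysteine, histidine, leucine, valine and tryptophan. The cysteine pair was the widest, with Cars at 1.17 and Cars2 at -0.78. The difference between the mean log2 levels of the cytosolic and the mitochondrial set within a library was 2.09, 2.18 and 2.08 in untreated WT, 3.07, 2.91 and 2.87 in WT with PDGF-BB, 2.32, 2.50 and 2.48 in untreated KO, and 2.83, 2.82 and 2.83 in KO with PDGF-BB. This measure is taken within each library and so does not depend on how libraries are scaled to each other, except through the added 1. By this measure too the untreated KO libraries lay above the untreated WT libraries and the treated KO libraries below the treated WT libraries.

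**Figure D3:**
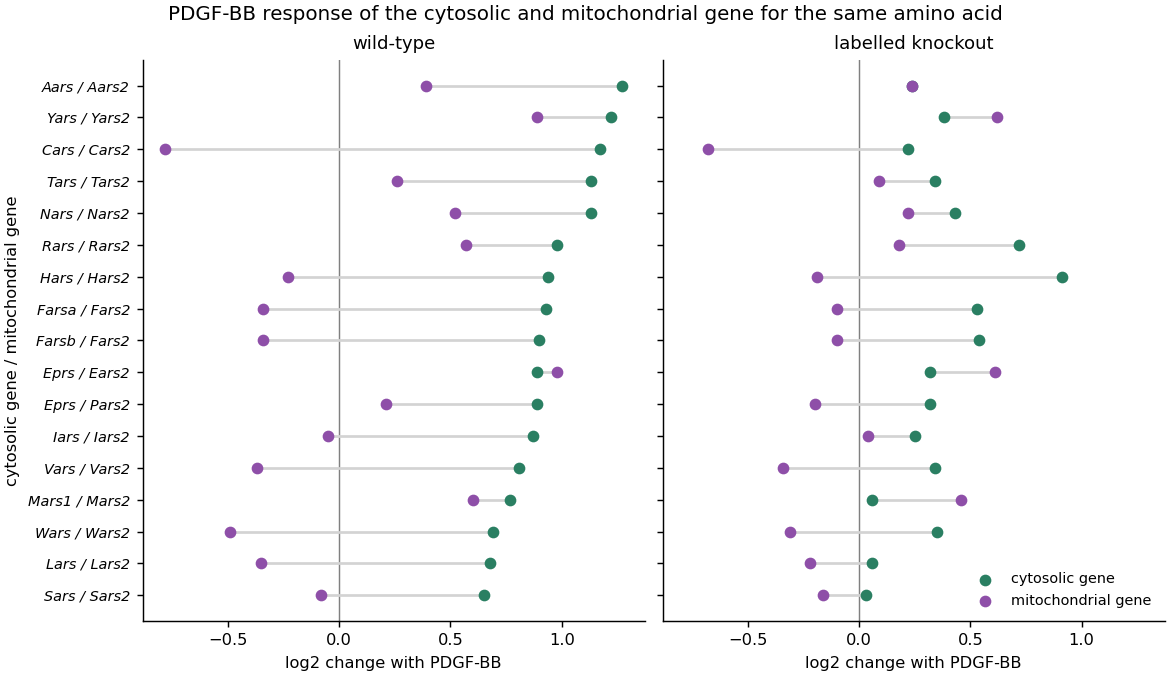
Log2 change with PDGF-BB of the cytosolic (green) and the mitochondrial (purple) gene for the same amino acid, joined by a line, in WT (left) and labelled KO (right). In WT the green point lies to the right in the pairs drawn other than Eprs with Ears2, and the cysteine pair is the widest, at 1.17 and -0.78.

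The genotype labels were then compared without PDGF-BB. Of the cytosolic genes 8 were higher in untreated cells labelled KO, 1 was lower and 11 were not called, with a median log2 difference of 0.14; over all genes 9.15% were called higher and 24.8% lower, with a median of -0.13. No mitochondrial gene was called higher and 4 were lower, or 3 without Tarsl2, with a median of -0.14. At an unadjusted p under 0.05, limma-trend called 9 cytosolic genes higher and 2 lower and 0 mitochondrial genes higher and 5 lower. edgeR called 11 and 0 cytosolic genes and 0 and 1 mitochondrial genes, and DESeq2 called 12 and 0, and 0 and 1. The scaling mattered here: with TMM the median of all genes moved from -0.13 to -0.01 and the share of calls that were higher from 27% to 48.7%, and the cytosolic median became 0.27 with 11 called higher and 0 lower. The mitochondrial median was -0.01 with TMM and 0.01 with quantile scaling, so its direction depends on the scaling. In these libraries the endothelial markers summed to 75.8 to 82.6 CPM in WT and 510 to 570 CPM in KO, and the smooth muscle markers to 1808 to 2294 and 2259 to 3466 CPM; their part in the differences was not tested.

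Aars had the largest difference. Untreated WT libraries were at 108, 120 and 105 CPM and untreated KO libraries at 164, 185 and 189 CPM, a log2 difference of 0.69 (SE 0.07, adjusted p = 7.12e-06). The groups were well apart. Cars was at 41.3, 45.7 and 41.6 CPM in WT and 50.6, 61.6 and 63.5 CPM in KO, a difference of 0.44 (SE 0.1, adjusted p = 0.00533). Tars was at 65.3, 73.8 and 70.1 CPM in WT and 82.7, 96.6 and 100 CPM in KO, a difference of 0.41 (SE 0.099, adjusted p = 0.00606). KO replicate 1 was the lowest of its group in all 3 genes and still lay above every WT library. Iars was higher by 0.39, Eprs by 0.34, Nars by 0.32, Mars1 by 0.26 and Yars by 0.26. The calls of Aars, Cars, Tars, Iars and Eprs were kept under every alternative run, while those of Nars, Mars1 and Yars were lost under 7, 5 and 10 of 24. Gars was at 0.29 and not called (adjusted p = 0.0719). Kars was the gene called lower, with WT at 74.7, 77.5 and 77.5 CPM and KO at 57.4, 63.5 and 69.6 CPM, a difference of -0.27 (SE 0.077, adjusted p = 0.0151); with TMM it was -0.14 (adjusted p = 0.218), and the call was lost under 8 of 24 alternatives.

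Among the mitochondrial genes Tarsl2 differed most, at 19.6, 17.9 and 22.6 CPM in untreated WT and 11.5, 10.6 and 10 CPM in untreated KO. The log2 difference was -0.84 (SE 0.12, adjusted p = 0.000144), and it was kept under every alternative. Vars2 was at 23.1, 26.9 and 24.1 CPM in WT and 20.4, 18.3 and 20.7 CPM in KO, a difference of -0.31 (SE 0.095, adjusted p = 0.0243). Hars2 was at 33.8, 35 and 36 CPM in WT and 32.1, 27.2 and 27.9 CPM in KO, a difference of -0.26 (SE 0.089, adjusted p = 0.037). The libraries of these genes did not overlap, yet the Vars2 call was lost under 8 of 24 alternatives and the Hars2 call under 12, the scaling ones among them. Iars2 was lower by 0.24 on the log2 scale (SE 0.056, adjusted p = 0.00444), with WT at 95.7, 93.2 and 96.6 CPM and KO at 81.7, 82.4 and 77.1 CPM, a call lost under 4.

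With PDGF-BB, 0 cytosolic genes were higher in the labelled KO, 16 were lower and 4 were not called, with a median log2 difference of -0.34; over all genes 10.6% were called higher and 26.6% lower, with a median of -0.14. No mitochondrial gene was called higher and 10 were lower, or 9 without Tarsl2, with a median of -0.24. At an unadjusted p under 0.05, limma-trend called 0 and 17 cytosolic genes and 0 and 11 mitochondrial genes. edgeR called 0 and 11 cytosolic and 0 and 5 mitochondrial genes, and DESeq2 0 and 9 cytosolic and 1 and 4 mitochondrial genes. With TMM the median of all genes moved to -0.05 and the share of calls that were higher from 28.5% to 47.4%; the cytosolic count was then 0 higher and 10 lower with a median of -0.24, and the mitochondrial count 0 and 5 with a median of -0.14. The endothelial markers summed to 60.6 to 65.4 CPM in these WT libraries and 482 to 494 CPM in KO, and the smooth muscle markers to 1470 to 1959 and 3146 to 3229 CPM; their part was again not tested.

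Yars differed most, at 131, 109 and 102 CPM in WT with PDGF-BB and 75.2, 77 and 75.3 CPM in KO with PDGF-BB. The log2 difference was -0.57 (SE 0.091, adjusted p = 0.000309). Cars was at 115, 88.6 and 92.1 CPM in WT and 65.9, 68.7 and 69 CPM in KO, a difference of -0.52 (SE 0.1, adjusted p = 0.00175). Lars was at 142, 127 and 118 CPM in WT and 88.3, 88.2 and 92.9 CPM in KO, a difference of -0.52 (SE 0.069, adjusted p = 7.9e-05). All 3 KO libraries lay below all 3 WT libraries for each gene, and the KO libraries were the tighter group. Aars, the gene highest relative to WT without PDGF-BB, was here lower by 0.34 on the log2 scale (SE 0.07, adjusted p = 0.00231). The others called lower were Dars, Sars and Mars1 at -0.45, Nars and Vars at -0.39, Tars at -0.38, Farsa at -0.35, Wars and Farsb at -0.33, Kars at -0.31, Eprs at -0.24 and Iars at -0.23. Of these calls, Iars was lost under 15 of 24 alternatives, Farsb under 11, Farsa under 8, Kars under 5, Eprs under 4, Nars under 3, and Sars and Tars under 1 each. Eprs was lost under TMM, quantile scaling, edgeR and DESeq2, where its value was as small as -0.11. Not called were Gars at -0.30, Hars at -0.23, Rars at -0.19 and Qars at -0.08. All 8 cytosolic genes higher in untreated KO cells were among the 16 lower with PDGF-BB, that is 8 of 16 of the second list. As 16 of the 20 cytosolic genes were on the second list, any 8 would be expected to fall mostly on it. With TMM Eprs, Iars and Nars left that list, and the overlap over all genes was not counted. These 2 comparisons share no library, but both use the spread estimated over all 12 libraries.

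Among the mitochondrial genes with PDGF-BB, Tarsl2 was again the lowest relative to WT, at 10.7, 13.9 and 11.7 CPM in WT and 7.93, 6.96 and 8.81 CPM in KO, a difference of -0.56 (SE 0.12, adjusted p = 0.00337). Rars2 was at 28.2, 23.5 and 22.7 CPM in WT and 16.1, 17.4 and 17.1 CPM in KO, a difference of -0.52 (SE 0.091, adjusted p = 0.000679). Nars2 (asparaginyl) was at 7.35, 8.31 and 7.05 CPM in WT and 4.61, 4.96 and 5.93 CPM in KO, a difference of -0.48 (SE 0.13, adjusted p = 0.014). The genotypes did not overlap for any of the 3. The others called lower were Pars2 at -0.46, Ears2 at -0.40, Aars2 at -0.39, Tars2 at -0.34, Yars2 at -0.28, Vars2 at -0.27 and Iars2 at -0.15. The calls of Iars2, Yars2, Vars2 and Pars2 were lost under 20, 12 and 12 of 24 and 11 of 23 alternatives, that of Tars2 under 7 of 24, that of Nars2 under 4, and those of Ears2 and Aars2 under 1, quantile scaling.

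**Figure D4:**
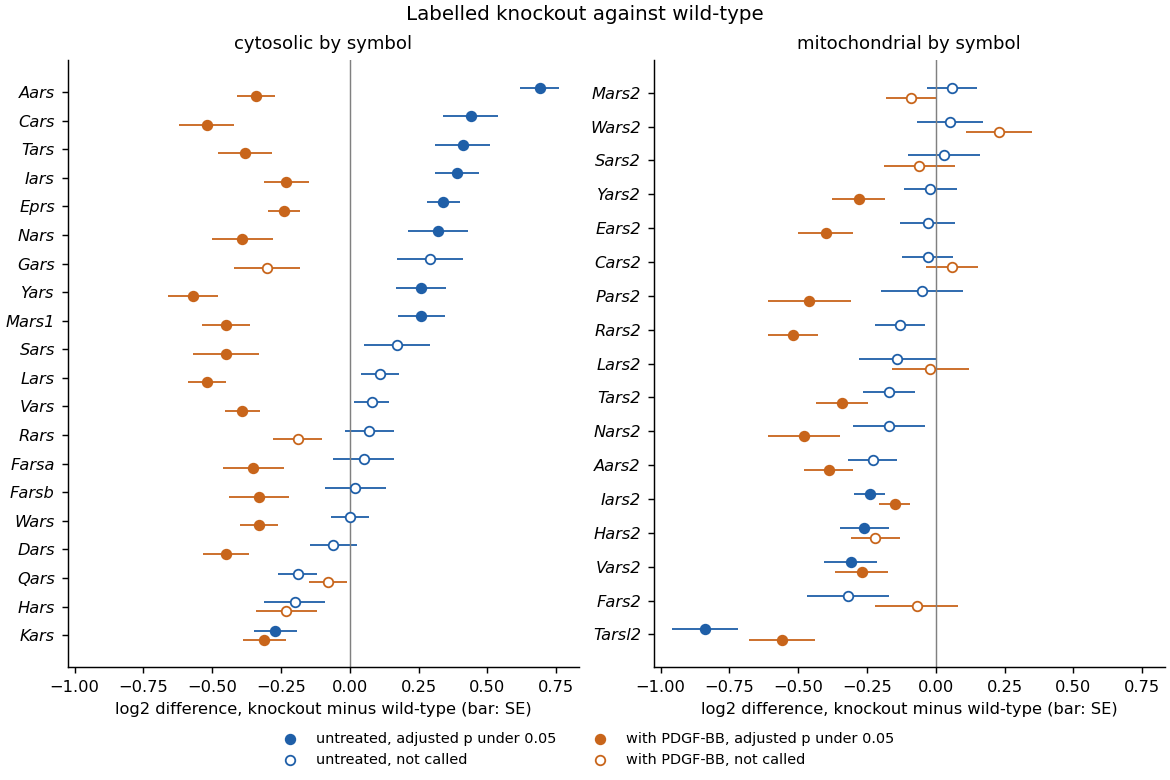
Log2 difference between labelled KO and WT for the cytosolic (left) and the named mitochondrial (right) synthetase genes, untreated (blue) and with PDGF-BB (orange); bars are the SE, and filled points passed an adjusted p of 0.05. Aars stood at 0.69 untreated and at -0.34 with PDGF-BB, while Tarsl2 was below 0 in both, at -0.84 and -0.56.

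Whether the response to PDGF-BB differed between the genotype labels was tested with the interaction term, the KO response minus the WT response. It was called lower for 10 cytosolic genes and higher for 0, with a median of -0.58, where 2.25% of all genes were called higher and 1.68% lower and the median of all genes was 0.01. With TMM the share of all calls that were higher was 46.7% in place of 57.3%, and the cytosolic count was 0 higher and 11 lower. For the mitochondrial genes limma-trend, edgeR and DESeq2 called 0 in either direction, with a median of -0.04, and 0 were higher and 2 lower at an unadjusted p under 0.05. Without WT PDGF-BB replicate 1 the cytosolic count was 0 higher and 14 lower with a median of -0.44, and the mitochondrial count stayed at 0 and 0.

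The 10 genes are those whose smaller response in cells labelled KO passed the threshold. The estimated response was smaller in KO than in WT in 19 cytosolic genes, all except Qars. The share of all genes with a smaller estimate in KO was not counted, so this is not read as a mark of the set. Over all genes, PDGF-BB calls were also fewer in KO, at 17.6% higher and 24.8% lower. In WT the shares were 25% and 34.4%. Of the 10, values in all WT libraries are given above for Aars, Cars, Yars, Tars and Nars. For Aars the interaction was -1.03 (SE 0.099, adjusted p = 0.000165), the difference between a WT rise of 1.27 and a KO rise of 0.24. For Cars it was -0.96 (SE 0.15, adjusted p = 0.00287), with KO libraries at 50.6, 61.6 and 63.5 CPM untreated and 65.9, 68.7 and 69 CPM treated. For Yars it was -0.84 (SE 0.13, adjusted p = 0.00287), with KO libraries at 53.6, 62.9 and 57.5 CPM untreated and 75.2, 77 and 75.3 CPM treated. In all 3 genes the KO libraries lay above the WT libraries without PDGF-BB and below them with it. For Tars it was -0.79 (SE 0.14, adjusted p = 0.00713), with KO libraries at 82.7, 96.6 and 100 CPM untreated and 118, 116 and 119 CPM treated. For Nars it was -0.71 (SE 0.15, adjusted p = 0.019), with KO libraries at 144, 168 and 166 CPM untreated and 220, 206 and 215 CPM treated. The Nars call was lost when any of 6 libraries was left out, with an adjusted p of up to 0.0616.

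The other 5 genes of the 10 were 4 members of the multi-synthetase complex and Vars. Mars1 was at 50.7, 55.1 and 51.2 CPM in untreated WT, 99.1, 86.5 and 85.5 CPM in treated WT, 55.9, 68.3 and 65.5 CPM in untreated KO and 66.5, 68.9 and 62.5 CPM in treated KO. Its KO groups overlapped, and the interaction was -0.71 (SE 0.12, adjusted p = 0.00601). Lars was at 77.6, 81.2 and 80.6 CPM in untreated WT and 83.1, 88.1 and 86.6 CPM in untreated KO, with the treated values above, and its interaction was -0.62 (SE 0.098, adjusted p = 0.00353). Iars was at 79.2, 81.6 and 80.4 CPM, then 131, 155 and 160 CPM in WT, and at 96.2, 112 and 110 CPM, then 124, 125 and 130 CPM in KO, with an interaction of -0.62 (SE 0.11, adjusted p = 0.00845). In Iars, unlike most, WT PDGF-BB replicate 1 was the lowest of its group. Eprs was at 140, 135 and 138 CPM, then 255, 257 and 259 CPM in WT, and at 162, 181 and 180 CPM, then 221, 211 and 221 CPM in KO, with an interaction of -0.57 (SE 0.084, adjusted p = 0.00233). Vars was at 70.5, 72.8 and 74.4 CPM, then 134, 124 and 125 CPM in WT, and at 74.5, 82.5 and 74.2 CPM, then 98.4, 96.6 and 97 CPM in KO, with an interaction of -0.47 (SE 0.089, adjusted p = 0.00953).

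The remaining cytosolic genes were not called. Sars was at -0.62 (adjusted p = 0.0597), Gars at -0.60 (0.0662), Farsa at -0.40, Dars at -0.39, Farsb at -0.35, Wars at -0.33 (0.0821), Rars at -0.25, Kars at -0.04 (0.878), Hars at -0.03 (0.93) and Qars at 0.11. Hars and Kars thus had near-equal estimates of the response under both labels, though a p above the threshold does not show that they responded alike. The mitochondrial estimates ran from -0.41 for Pars2 to 0.29 for Tarsl2. Of the 5 genes whose printed promoters hold the CARE core, Aars, Iars, Tars and Yars were called in the interaction and Gars was not; of the 8 matched cytosolic genes without the core, Eprs and Mars1 were called and the other 6 were not. The remaining 4 genes called, Cars, Lars, Nars and Vars, were not among the matched promoters.

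**Figure D5:**
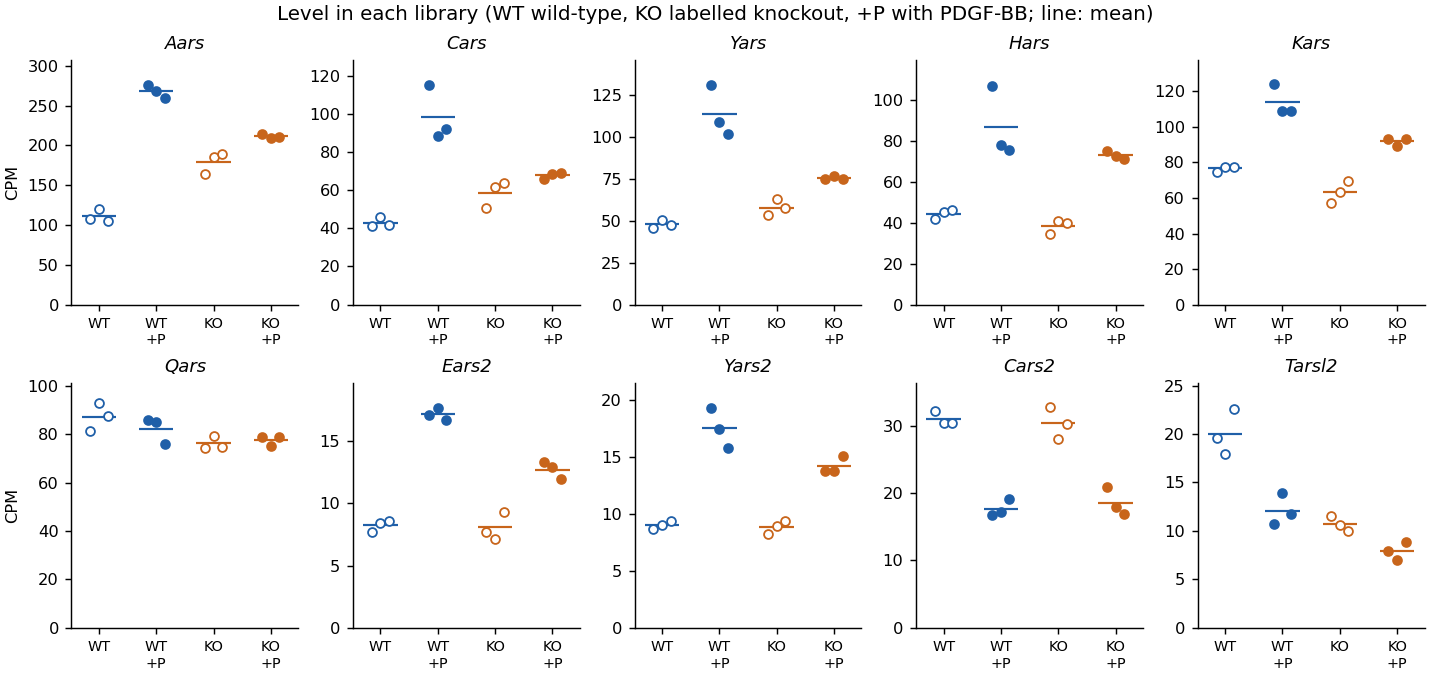
Level in CPM of 10 synthetase genes in each of the 12 libraries; lines are group means, open points untreated and filled points with PDGF-BB. Aars, Cars and Yars were higher untreated and lower with PDGF-BB in the labelled KO than in WT, Hars and Kars rose under both labels, Qars overlapped between treatments, Ears2 and Yars2 rose, and Cars2 and Tarsl2 fell.

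Other genes of the charging pathway were read from lists. Of the 3 scaffolds of the multi-synthetase complex, Eef1e1 and Aimp2 rose under both labels. Eef1e1 was at 11.7, 11.2 and 11.3 CPM in untreated WT and 36.7, 21.9 and 23.5 CPM with PDGF-BB, up 1.16 (SE 0.16, adjusted p = 3.15e-05), and it rose by 0.92 in the labelled KO. Aimp2 rose by 0.90 and 0.65. Of the 6 genes of aminoacyl-tRNA editing and hydrolysis, 1 rose and 1 fell in WT and 1 rose and 2 fell in the labelled KO. Gtpbp2 fell under both labels, with log2 changes of -0.53 and -0.46. Of the 4 genes of mitochondrial transamidation and formylation, Qrsl1 rose (0.60 and 0.45), while Gatb (-0.66 and -0.64) and Mtfmt (-0.30 and -0.25) fell, WT first. Qrsl1 and Gatb encode subunits of the amidotransferase that makes mitochondrial glutaminyl-tRNA, and Mtfmt formylates the initiator methionyl-tRNA. In WT 25% of all genes were called higher and 34.4% lower, and in the labelled KO 17.6% and 24.8%, the shares against which this and the following lists are read. None of these 3 lists had a member called in the interaction by limma-trend.

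The ATF4 list, made of Atf4 and other genes of amino acid synthesis and stress, had 21 measured members. In WT 16 of 21 rose and 1 fell, with a median of 0.88, and in the labelled KO 6 rose and 4 fell, with a median of 0.30. In untreated cells 10 were higher and 2 lower in the labelled KO (median 0.36), with PDGF-BB 2 were higher and 9 lower (median -0.27), and in the interaction 0 were higher and 7 lower (median -0.68). Over all genes 9.15% were higher and 24.8% lower in untreated KO cells, 10.6% and 26.6% with PDGF-BB, and 2.25% and 1.68% in the interaction. The genotype medians of all genes were -0.13 and -0.14. Asns, which makes asparagine, was at 24.8, 26.5 and 25.5 CPM in untreated WT, 107, 72.8 and 70.4 CPM in treated WT, 39.5, 54.9 and 54.9 CPM in untreated KO and 61.7, 61.2 and 63.6 CPM in treated KO. As for Aars, the untreated KO libraries were above the untreated WT libraries and the treated ones below. The interaction was -1.31 for Asns (SE 0.21, adjusted p = 0.00373), -1.96 for Mthfd2 (SE 0.22, adjusted p = 0.000431), a mitochondrial folate enzyme, and -1.43 for Trib3. Atf4 itself was at 128, 135 and 123 CPM in untreated WT and 398, 273 and 239 CPM with PDGF-BB, up 1.2 (SE 0.14, adjusted p = 7.66e-06). In the labelled KO it was at 152, 176 and 170 CPM and then 205, 206 and 205 CPM, an estimate of 0.31 that was not called (adjusted p = 0.0855), and its interaction was -0.89 (SE 0.19, adjusted p = 0.0215). The list was assembled with earlier results of these libraries known, so its direction is not independent evidence.

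Amino acid transporters had 7 of 12 measured genes higher and 2 lower in WT and 4 higher and 3 lower in the labelled KO, where 24.8% of all genes were lower. Slc7a5, the exchanger that brings in large neutral amino acids, rose by 1.48 in WT (SE 0.11, adjusted p = 1.11e-07) and had an interaction of -1.0 (SE 0.15, adjusted p = 0.00268). In untreated cells 8 transporters were higher and 3 lower in the labelled KO, where 9.15% of all genes were higher and 24.8% lower. Slc38a2, a sodium-coupled neutral amino acid transporter, was at 282 ± 8.25 CPM in WT and 576 ± 67.5 CPM in KO (SD, n = 3). Slc38a2 fell with PDGF-BB under both labels, by 0.69 and 1.01 on the log2 scale. Of the 12 genes of eIF2 control, 9 rose and 2 fell in WT and 7 rose and 1 fell in the labelled KO; Eif2b3, a subunit of the exchange factor for eIF2, rose by 1.10 and 0.68. Myc, a growth-promoting transcription factor, rose by 1.36 in WT and 1.03 in the labelled KO, in a list of MYC partners where 2 of 11 rose and 5 fell in WT.

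Genes of the mitochondrial translation machinery gave a second view of the mitochondrial side. Of 77 measured mitochondrial ribosomal protein genes, 45 rose and 0 fell in WT, with a median of 0.42, and 15 rose and 1 fell in the labelled KO, with a median of 0.18. Without WT PDGF-BB replicate 1 the WT count was 39 higher and 5 lower, with a median of 0.23. In the genotype comparison with PDGF-BB 0 were higher and 29 lower, with a median of -0.35, where 10.6% of all genes were higher and 26.6% lower. Without that library 3 were higher and 15 lower, with a median of -0.15. Over all 14202 genes 1690 were then higher and 4219 lower, with a median of -0.12. The size of these differences thus rests partly on that library, and without it the lower share was below that of all genes. Of 10 mitochondrial translation factors, 3 rose in WT, namely Tufm at 0.77, Gfm1 at 0.52 and Tsfm at 0.51, which are elongation factors, and 2 fell, namely Guf1 at -0.81 and Mtif3 at -0.35. Of 6 cytosolic elongation factors, Eif5a (1.22), Eef1g (0.71) and Eef1d (0.60) rose and Eef2 (-0.38) fell in WT. Pprc1, a coactivator of mitochondrial biogenesis, rose by 1.24 in WT and 0.94 in the labelled KO; it was 1 of 5 genes that rose among 9 such regulators in WT and the only gene of the list called in the labelled KO. Of the 20 genes of RNA polymerase III, which transcribes tRNAs, 6 rose and 4 fell in WT, with Polr3d at 0.90 and the repressor Maf1 at -0.82, and 3 rose and 4 fell in the labelled KO, shares near or below those of all genes in WT (25% higher and 34.4% lower) and in KO (17.6% and 24.8%). Of the 15 genes of amino acid sensing by mTORC1, 3 rose and 4 fell in WT and 1 rose and 5 fell in the labelled KO; Sesn1, a sestrin that restrains mTORC1, was at -1.60 and -1.26. The WT counts of this list too were near or below the shares of all genes.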

How the data were processed

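Poly(A) RNA was sequenced from stranded libraries of 12 samples in 4 groups of 3. Per the submitters' processing notes, HISAT2, HTSeq and mm10 were used; versions and the strand setting are not given in the sources used here. The deposited table carries FPKM in its name, but its values are CPM: the sum was 1000000 in every library, and 100% of the values corresponded to whole reads (tolerance 0.001 read), so gene length was not divided out. Genes were kept at 1 CPM or more in at least 3 of 12 libraries, which left 14202. The planned test, limma-trend (limma 3.58.1, R 4.3.3), was fitted on log2(CPM + 1) with 1 mean per group over all 12 libraries; the 2-sided p-values were adjusted by Benjamini-Hochberg across the genes kept, and calls needed an adjusted p under 0.05. Log2 changes and folds are on the CPM + 1 scale and understate changes of low genes. SE is from that fit and SD is over 3 libraries. The fit was tried on simulated data with the same spread for all genes and libraries. Only the WT response to PDGF-BB was checked there, not the genotype comparisons or the interaction.

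The members and all gene lists were chosen with earlier results of these data known. The lists cover complex scaffolds, aminoacyl-tRNA editing, mitochondrial transamidation, elongation factors, mitochondrial translation factors, ATF4 targets, transporters, eIF2 control, MYC partners, mitochondrial biogenesis, RNA polymerase III, mitochondrial ribosomal proteins and mTORC1 sensing. Some genes are not reported here by name, though class counts and medians include them; full values go to the called members of each class with the 4 largest changes per direction for PDGF-BB, the 3 largest for genotype, and all called in the interaction. Of each list, examples are among its called members with the largest changes.

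Alternatives were pseudocounts of 0.25 and 0.1, no filter, a mean of at least 5 CPM, TMM and quantile scaling, edgeR 4.0.16 (quasi-likelihood) and DESeq2 1.42.0 on the recovered reads, the compared groups alone, a replicate block, removal of the exon length trend, and leaving out each library; gene-by-gene array weights were added after seeing the data. The sample numbers were not used as pairs. Exon overlaps come from GENCODE M21 and promoters from RefSeq on GRCm38.p6; no protein sequence was used here.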

Additional observations from a re-analysis of the deposited data

Results flagged for a closer look

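For 10 cytosolic synthetases the response to PDGF-BB differed between the genotype labels by the interaction term of the fit (limma-trend, adjusted p under 0.05). The KO response minus the WT response was -1.03 for Aars, -0.96 for Cars, -0.84 for Yars, -0.79 for Tars, -0.71 for Mars1, -0.71 for Nars, -0.62 for Lars, -0.62 for Iars, -0.57 for Eprs and -0.47 for Vars on the log2 scale. The endothelial and smooth muscle markers differed between the labels in both conditions, as given beside the genotype comparisons, and their part was not tested.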

How the results depend on the processing

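No call of a synthetase gene changed direction under any alternative that was run. Of the called members, 30 of 33 in WT, 17 of 23 in the labelled KO, 6 of 13 between untreated genotypes, 10 of 26 with PDGF-BB and 9 of 10 in the interaction kept their call under all of them. Between untreated genotypes, 8 cytosolic genes were higher; the count was 5 without the filter and 5 to 10 with 1 library left out. The count of 1 lower cytosolic gene became 2 with the mean CPM filter, 0 with TMM, quantile scaling, edgeR, DESeq2 or the exon length trend removed, 3 with the compared groups alone or array weights, and 0 to 3 with 1 library left out. The 4 lower mitochondrial genes became 1 with TMM, edgeR, DESeq2 or the length trend removed, 2 with quantile scaling, 7 with array weights, and 2 to 6 with 1 library left out. With PDGF-BB, the 16 lower cytosolic genes became 14 without the filter, 10 with TMM and 9 with DESeq2. They became 11 with quantile scaling, edgeR or the compared groups alone. Without WT PDGF-BB replicate 1 the call of Farsb was lost, at -0.19 (limma-trend adjusted p = 0.0567). The 10 lower mitochondrial genes became 6 without the filter, 5 with TMM, edgeR, the compared groups alone or the length trend removed, 4 with DESeq2, 2 with quantile scaling, and 6 to 10 with 1 library left out; 1 was higher with DESeq2 or the length trend removed. In the interaction, array weights called 1 mitochondrial gene higher and 2 lower in place of 0 and 0.

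Over all genes, the untreated comparison had 1300 higher and 3523 lower, against 1930 and 2034 with TMM, 1862 and 2149 with quantile scaling, 1943 and 1993 with edgeR, 2144 and 1947 with DESeq2, 2308 and 2448 with the length trend removed, and 2003 and 5663 with array weights. With PDGF-BB the lower count of 3777 became 2139, 1950, 2246 and 2070 under the first 4 of these, 2258 with the compared groups alone and 5750 with array weights. The interaction had 319 higher and 238 lower, against 412 and 498 with DESeq2, 464 and 660 with the length trend removed, 1533 and 1281 with array weights, and 216 and 155 without the filter. Without WT PDGF-BB replicate 1 it had 811 and 743, and without replicate 3 of that group 490 and 417. With any other single library left out it had as few as 156 and 118. The cause of these shifts was not tested.

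The sample numbers are not stated to pair libraries, and the correlations of same-numbered deviations ran from -0.23 to 0.18; with the replicate block the cytosolic count was 19 higher in WT, 6 higher between untreated genotypes, 15 lower with PDGF-BB and 10 lower in the interaction. The planned default array weights were not run to a result, because the estimate did not converge. Depth was lowest for Pars2, with as few as 59 reads in a library.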
